A study of Nasonia vitripennis with 6 samples.

Results

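The genes described here are 4 transcription factors of the lateral region of the embryo of the parasitoid wasp Nasonia vitripennis: Nv-vnd (Nasvi2EG001451), Nv-msh (Nasvi2EG016888), achaete-scute (Nasvi2EG013397) and sox-neuro (Nasvi2EG001588). They were chosen by gene identifier as regulators of the neuroectoderm, and 4 of 4 were found among the 20033 loci of the table. All 4 were among the 10241 loci tested after low counts were filtered out. The study lists them among genes with a lateral expression pattern, a list that it drew from these same libraries, so their response here is not independent of how the list was made.

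Poly-A RNA was sequenced from pools of more than 1000 embryos, aged 4 to 7 h after egg lay at 28 °C and each collected over a week, in 6 libraries of 3 groups with 2 libraries each. Mothers had been injected as yellow pupae with double-stranded RNA (parental RNA interference, pRNAi) or with water. The Toll pRNAi libraries were made with dsRNAs against non-overlapping sections of Nv-TollA, the receptor gene of ventral patterning. The BMP pRNAi group holds 1 library with gbb1 dsRNA and 1 with dpp dsRNA, both against genes of BMP ligands, so the spread within that group includes the difference between the ligands. No strain or maternal age is given in the labels, and the mothers of all groups received an injection. The libraries hold between 22754267 and 30590172 fragments. The level of Nv-TollA was 4.92 and 1.23 FPKM (fragments per kilobase of transcript, scaled to library size) after Toll pRNAi against 101 and 128 FPKM in water. The level of Nv-dpp was 7.03 FPKM in the dpp library, 12.7 FPKM in the gbb1 library and 18.1 and 17.0 FPKM in water. The water libraries carry other numbers in their titles than the 4 knockdown libraries. If these numbers mark batches, batch and treatment cannot be told apart in comparisons with water.

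In Drosophila, the neuroectoderm lies between the mesoderm and the dorsal ectoderm and is divided along the dorsoventral axis into columns by the homeodomain factors vnd (ventral), ind (intermediate) and msh (dorsal). Neural precursors are singled out within these columns by proneural basic helix-loop-helix factors of the achaete-scute family, and SoxB factors such as sox-neuro act across the neuroectoderm. In the fly, Dorsal (NF-κB) signaling downstream of Toll sets up the whole axis. BMP signaling has a subordinate part there, limited to the dorsal side, and represses neural genes. For Nasonia, the study describes a pattern that relies heavily on BMP signaling, with Toll limited to the ventral side. The intermediate columnar gene Nv-ind was not paired with a locus, so it was not analysed here. Separately, the study names Nv-ind among known genes that its analysis of differential expression missed, which is a different absence from the missing pairing here.

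The 2 columnar genes moved in opposite directions when BMP ligands were knocked down. Nv-vnd rose and Nv-msh fell against water, and the order of the groups was Toll pRNAi, water, BMP pRNAi from lowest to highest for Nv-vnd and the reverse for Nv-msh. The proneural gene achaete-scute and the locus of sox-neuro followed the order of Nv-msh with smaller differences. In bulk RNA of whole embryos, fewer cells that express a gene and less RNA per cell cannot be told apart.

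**Figure D1:**
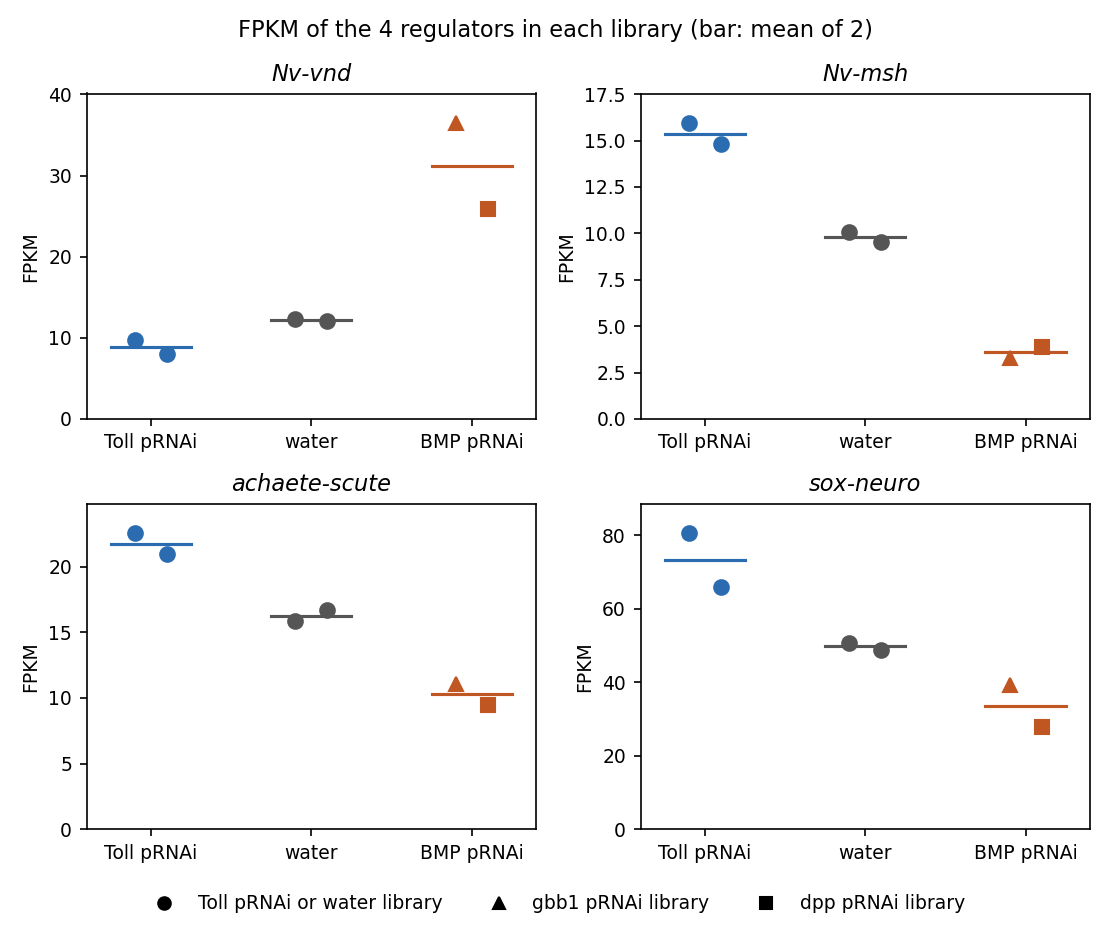
Level of each of the 4 regulators in FPKM (y axis, from 0) in the 6 libraries, by group (x axis). Circles are Toll pRNAi and water libraries, the triangle is the gbb1 and the square the dpp library, and the short line is the mean of 2 libraries. Nv-vnd is highest after BMP pRNAi (25.9 and 36.5 FPKM), and the other 3 genes are highest after Toll pRNAi.

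Nv-vnd is the homolog of ventral nervous system defective, the homeodomain factor of the ventral column in the fly. Its locus lies on scaffold 2, from 1816960 to 1874875 of assembly 1.0, and holds no other gene identifier. It had 12.3 and 12.1 FPKM in the water libraries, 9.76 and 7.98 FPKM after Toll pRNAi, 36.5 FPKM in the gbb1 library and 25.9 FPKM in the dpp library. The BMP libraries were both far above all others, and both Toll libraries were below both water libraries. The mean FPKM after BMP pRNAi was 255% of that in water, and after Toll pRNAi it was 72.5%.

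On fragments, Nv-vnd rose against water after BMP pRNAi by 1.32 in log2 (standard error 0.16, 95% interval 0.94 to 1.69, edgeR adjusted p = 0.0047), the 28th highest of 10241 tested loci. The change rests unequally on the ligands, at 1.56 without the dpp library and 1.04 without the gbb1 library, and its adjusted p was 0.066 without water replicate 2. Between Toll pRNAi and water the log2 fold change was -0.37 (standard error 0.17, 95% interval -0.76 to 0.01, edgeR adjusted p = 0.23), which did not pass the threshold of 0.05. This call depended on the fit, since with only the Toll and water libraries the value was -0.39 (edgeR adjusted p = 0.042), and without the gbb1 or the dpp library the adjusted p was 0.039 or 0.031. Between the knockdowns Nv-vnd was lower after Toll pRNAi, at -1.69 (standard error 0.17, 95% interval -2.07 to -1.31, edgeR adjusted p = 0.00070).

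Nv-msh is the homolog of muscle segment homeobox, which marks the dorsal column in the fly. Its locus lies on scaffold 66, from 567973 to 571379, and holds no other identifier. It had 10.1 and 9.56 FPKM in water, 15.9 and 14.8 FPKM after Toll pRNAi, 3.30 FPKM in the gbb1 library and 3.87 FPKM in the dpp library. The 3 groups were apart from each other, with differences between groups several times the gap within any pair. As a share of the mean in water, the level was 157% after Toll pRNAi and 36.5% after BMP pRNAi.

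The fall of Nv-msh after BMP pRNAi was -1.42 on the log2 scale (standard error 0.11, 95% interval -1.69 to -1.16, edgeR adjusted p = 0.00043). Its sign and call held in every alternative run, and leaving out 1 library at a time moved it between -1.51 and -1.34. After Toll pRNAi Nv-msh rose by 0.64 (standard error 0.11, 95% interval 0.40 to 0.89, edgeR adjusted p = 0.026). It was the only one of the 4 genes to pass in that comparison, where 3.62% of all tested loci passed (2.6% higher and 1.03% lower). That call was lost without any one of the Toll or water libraries (edgeR adjusted p from 0.083 to 0.28), while the value stayed between 0.58 and 0.70. Between the knockdowns Nv-msh had the largest difference of the 4, at 2.06 (standard error 0.11, 95% interval 1.80 to 2.33, edgeR adjusted p = 2.9e-05), the 67th highest of 10241 loci.

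Within each library, the ratio of Nv-vnd to Nv-msh in FPKM sets the ventral against the dorsal columnar gene free of library size. It was 1.23 and 1.27 in water, 0.613 and 0.539 after Toll pRNAi, 11.1 in the gbb1 library and 6.69 in the dpp library. The columnar genes were thus at similar levels in water, Nv-msh was the higher one in both Toll libraries, and Nv-vnd was the higher one by far in both BMP libraries. The ratio of Nv-vnd to achaete-scute went the same way, at 0.778 and 0.728 in water, 0.433 and 0.381 after Toll pRNAi, and 3.30 and 2.73 in the gbb1 and dpp libraries. No test was run on these ratios, which use the same values as the tests above.

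**Figure D2:**
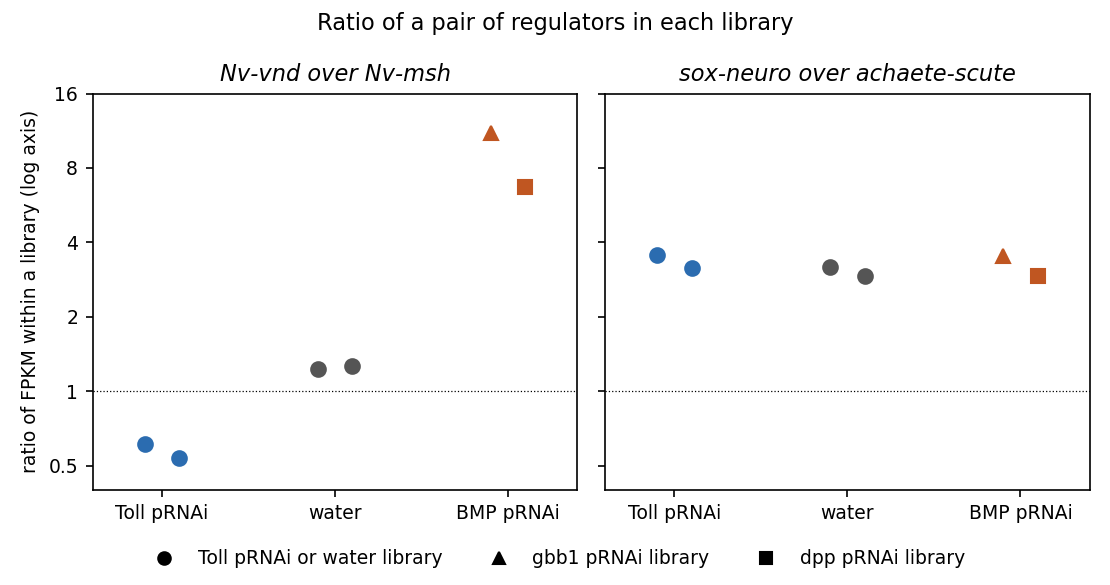
Ratio of the FPKM of a pair of genes within each library (y axis, log scale, dotted line at 1), by group (x axis), for Nv-vnd over Nv-msh and for sox-neuro over achaete-scute. Symbols are circles for Toll pRNAi and water libraries, a triangle for gbb1 and a square for dpp. The first ratio runs from 0.539 to 11.1 across libraries and the second from 2.93 to 3.57.

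The gene named achaete-scute encodes a factor of the proneural family, whose fly members give cells the competence to become neural precursors. The study lists this identifier as a paralog of the fly gene lethal of scute. Its locus, on scaffold 36 from 422049 to 423384, is the shortest of the 4 and holds no other identifier. It had 15.9 and 16.7 FPKM in water, 22.5 and 21.0 FPKM after Toll pRNAi, 11.1 FPKM in the gbb1 library and 9.48 FPKM in the dpp library. The groups did not overlap, and both ligand libraries were below both water libraries.

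After BMP pRNAi achaete-scute fell by 0.69 on the log2 scale (standard error 0.12, 95% interval -0.95 to -0.42, edgeR adjusted p = 0.018). In a fit of the BMP and water libraries alone it was again -0.69, with an adjusted p of 0.066, and the adjusted p was 0.056 to 0.14 without any one of the Toll or water libraries. Toll pRNAi and water differed by 0.43 in log2 for this gene (standard error 0.11, 95% interval 0.17 to 0.69, edgeR adjusted p = 0.072). That difference passed with only the Toll and water libraries in the fit, at 0.41 (edgeR adjusted p = 0.028), and without the gbb1 or the dpp library (edgeR adjusted p = 0.031 and 0.029). Between the knockdowns achaete-scute was higher after Toll pRNAi by 1.12 (standard error 0.12, 95% interval 0.85 to 1.38, edgeR adjusted p = 0.00089), which passed in every alternative run.

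The gene sox-neuro carries the name of an HMG-box factor of the SoxB group, needed in the fly to form the central nervous system. The study's list of fly dorsoventral genes pairs the fly gene with another wasp identifier, so the identity of this gene is uncertain. Its locus, on scaffold 2 from 2911396 to 3036925, holds 4 gene identifiers (Nasvi2EG001586, Nasvi2EG001587, Nasvi2EG001588 and Nasvi2EG001591), so its values are those of the locus and are uncertain for sox-neuro itself. It had 50.7 and 48.8 FPKM in water, 80.5 and 65.9 FPKM after Toll pRNAi, 39.1 FPKM in the gbb1 library and 27.9 FPKM in the dpp library. The Toll libraries were the highest and the BMP libraries the lowest, and the gap within each knockdown pair was wider than in water.

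The locus of sox-neuro fell after BMP pRNAi by 0.57 on the log2 scale (standard error 0.13, 95% interval -0.88 to -0.26, edgeR adjusted p = 0.0497). This lies at the threshold, and the adjusted p was 0.0996 with only the BMP and water libraries, 0.059 by limma on log2(FPKM + 1), 0.112 without the dpp library (where the value was -0.41), and 0.096 to 0.20 without any one of the Toll or water libraries. Against water the value after Toll pRNAi was 0.58 (standard error 0.13, 95% interval 0.27 to 0.89, edgeR adjusted p = 0.055), which passed with DESeq2 (adjusted p = 0.0022), with only the Toll and water libraries (edgeR adjusted p = 0.013) and without the gbb1 or the dpp library (edgeR adjusted p = 0.013 and 0.012). Between the knockdowns it was higher after Toll pRNAi by 1.15 (standard error 0.14, 95% interval 0.84 to 1.46, edgeR adjusted p = 0.0019). That call was lost with limma on all loci in log2(FPKM + 1), at an adjusted p of 0.095, and held in the other alternatives.

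The level of the sox-neuro locus stood in a narrow ratio to that of achaete-scute in every library. In FPKM the ratio was 3.19 and 2.93 in water, 3.57 and 3.14 after Toll pRNAi, 3.54 in the gbb1 library and 2.94 in the dpp library. The 3 groups overlapped in this ratio, although each of the genes on its own differed more than 2-fold between the knockdowns, by 2.17 for achaete-scute and 2.22 for the sox-neuro locus on fragments. This is not particular to the pair. By the measure of likeness used below, achaete-scute was closer to Nasvi2EG004847 (0.050), echinus (0.083) and Nasvi2EG009559 (0.083) than to the sox-neuro locus (0.11). Of the 20 other broad lateral genes, 16 were higher after Toll than after BMP pRNAi, 1 was lower and 3 did not pass.

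Across the genes, the order of FPKM levels in water was sox-neuro (49.7 ± 1.33, SD, n = 2), achaete-scute (16.3 ± 0.553), Nv-vnd (12.2 ± 0.161) and Nv-msh (9.81 ± 0.364), and no neighbours in this order overlapped. After Toll pRNAi it was sox-neuro (73.2 ± 10.3), achaete-scute (21.7 ± 1.10), Nv-msh (15.4 ± 0.804) and Nv-vnd (8.87 ± 1.26), again without overlap. After BMP pRNAi the levels of sox-neuro (33.5 ± 7.96) and Nv-vnd (31.2 ± 7.46) overlapped, followed by achaete-scute (10.3 ± 1.11) and Nv-msh (3.58 ± 0.407). Nv-vnd thus went from last place to the level of the sox-neuro locus between the knockdowns.

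Counted over the genes, 4 of 4 passed between BMP pRNAi and water, 1 higher and 3 lower, where 5.55% of tested loci passed (2.06% higher and 3.49% lower). Between Toll pRNAi and BMP pRNAi 4 of 4 passed, 3 higher and 1 lower after Toll pRNAi, where 6.89% of tested loci passed (5.83% higher and 1.06% lower). The median log2 fold change of the 4 was 0.51 between Toll pRNAi and water, -0.63 between BMP pRNAi and water, and 1.13 between the knockdowns, beside 0.02, 0.01 and 0.00 over all tested loci. The FPKM of the groups did not overlap for any of the 4 genes in any of the 3 comparisons. This holds for 57.8% of tested loci between Toll pRNAi and water, 59.1% between BMP pRNAi and water and 58.3% between the knockdowns, so it is common in groups of 2. All 3 groups were apart with water between the knockdowns for 4 of 4 genes and for 7.16% of tested loci. The comparisons share libraries, so these counts are not independent of each other.

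**Figure D3:**
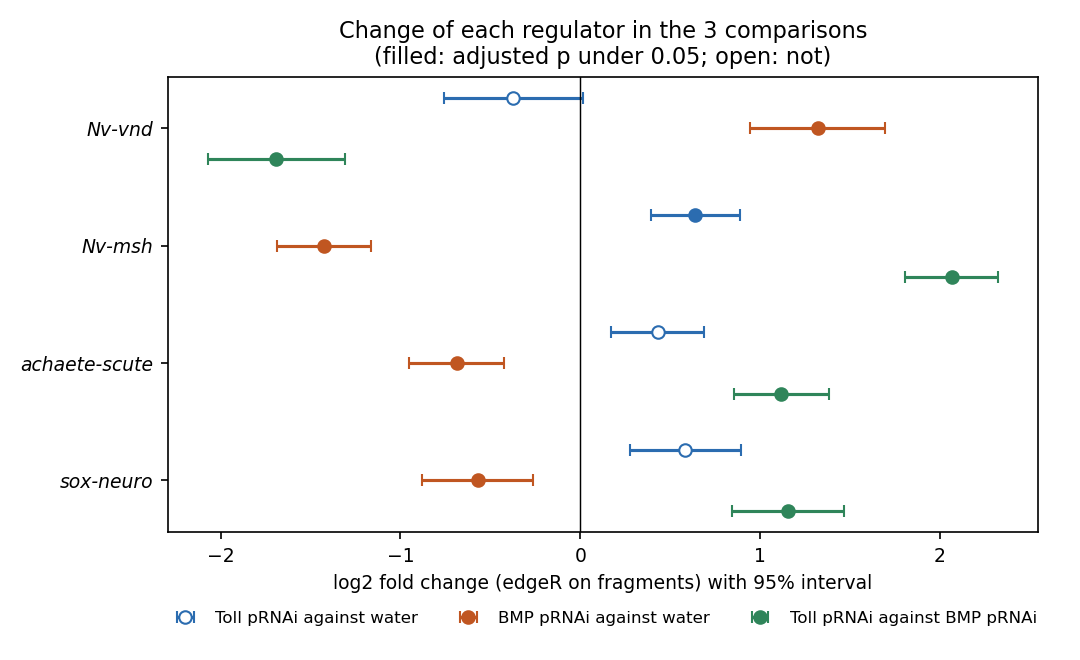
Log2 fold change of each regulator on fragments (x axis) with its 95% interval, in the 3 comparisons (colours: Toll or BMP pRNAi against water in blue or orange, and the knockdowns against each other in green). Filled points passed an edgeR adjusted p of 0.05 and open points did not. Nv-vnd lies on the opposite side of 0 from the other 3 genes in each comparison, and the 3 open points are Nv-vnd, achaete-scute and sox-neuro for Toll pRNAi against water.

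The ligand libraries differed in level, with no replicate of either. In FPKM, the gbb1 library was 1.41 times the dpp library for Nv-vnd, 1.40 times for the sox-neuro locus, 1.17 times for achaete-scute and 0.851 times for Nv-msh. On fragments scaled to library size (TMM log2 CPM), Nv-vnd differed by 0.52 between them, a gap that 15.1% of tested loci reached, and the water pair differed by 0.03 for the same gene. For Nv-msh the gap was -0.18, which 52.8% of tested loci reached. For achaete-scute it was 0.24 (40.1% of tested loci) and for the sox-neuro locus 0.35 (26.6%). On this scale the gbb1 library was 1.27 times the dpp library for the sox-neuro locus, less than in FPKM, and 1.43 times for Nv-vnd. The direction against water was the same in both ligand libraries for all 4 genes.

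In Toll pRNAi replicate 1 all 4 genes were higher than in replicate 2, by 0.08 (Nv-msh), 0.10 (achaete-scute), 0.25 (Nv-vnd) and 0.27 (sox-neuro locus) in TMM log2 CPM. Over all tested loci the difference within this pair had an SD of 0.33, so gaps of this size are common. The share of loci higher in replicate 1 was not computed. The level of Nv-TollA was 4.92 FPKM in replicate 1 and 1.23 FPKM in replicate 2. These libraries came from dsRNAs against different sections of Nv-TollA, so dsRNA and replicate cannot be told apart. The part of the remaining target RNA in these gaps was not tested.

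The other transcription factors to which the study's table of patterns gives a lateral class number 13, of which 12 were paired with a locus and tested. The factor left out was Nv-ind. Between the knockdowns 9 were higher and 2 lower after Toll pRNAi, and 1 did not pass, with a median log2 fold change of 0.998 beside 0.00 over all loci. Between BMP pRNAi and water 2 rose, 8 fell and 2 did not pass (median -0.79), and between Toll pRNAi and water 3 rose, 2 fell and 7 did not pass (median 0.31). The classes are those of that table, while elsewhere the study describes tailup and omb, which the table calls dorsolateral, with the dorsal genes. It places the later stripes of omb beside the serosa, and names pannier among conserved factors of the extraembryonic and dorsal region. The list was selected on these libraries, so these counts are no independent evidence of a direction.

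Of the ventrolateral factors, both Nv-sim (single-minded, the midline factor of the fly) and Nv-vvl (a POU-domain factor) had fold changes of the same sign as Nv-vnd in each comparison. After BMP pRNAi Nv-sim rose by 0.91 (standard error 0.12, edgeR adjusted p = 0.0068), beside 1.32 for Nv-vnd. At the Nv-vvl locus, which holds 2 identifiers, the rise was 1.21 (standard error 0.19, edgeR adjusted p = 0.013). Nv-sim fell after Toll pRNAi from 16.5 ± 1.18 to 2.50 ± 0.00964 FPKM (SD, n = 2), for a value of -2.52 in log2 (standard error 0.14, edgeR adjusted p = 0.00014). Nv-vvl fell by 0.93 in that comparison (standard error 0.20, edgeR adjusted p = 0.044). The value of -0.37 for Nv-vnd, which did not pass, was the closest to 0 of the 3, and the difference between the genes was not tested. Over the 4 tested ventrolateral genes other than Nv-vnd, of every protein type, 2 rose and 2 did not pass after BMP pRNAi, with values from -0.12 to 1.21 of which 1 was below 0. After Toll pRNAi 3 of these 4 fell and 1 did not pass (-0.04).

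The dorsolateral factors fell with Nv-msh after BMP pRNAi. The T-box gene omb had the value -3.60 (standard error 0.12, edgeR adjusted p = 5.2e-06) and the GATA gene pannier had -2.95 (standard error 0.13, edgeR adjusted p = 2.0e-05). The zinc-finger gene Nv-disco, whose locus has 2 identifiers, had -2.72 (standard error 0.16, edgeR adjusted p = 8.7e-05) and the LIM-homeodomain gene tailup by -1.75 (standard error 0.14, edgeR adjusted p = 0.00052). The value of Nv-msh, -1.42, was closer to 0 than all 4. Over the 7 dorsolateral genes other than Nv-msh, of every protein type, 7 fell, from -3.60 to -1.07 with a median of -2.72. After Toll pRNAi omb rose by 0.84 (standard error 0.098, edgeR adjusted p = 0.0084) and Nv-disco by 0.65 (standard error 0.14, edgeR adjusted p = 0.041), beside 0.64 for Nv-msh, while pannier (0.28) and tailup (0.02) did not pass.

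Among the broad lateral factors, the class of achaete-scute and sox-neuro, TFIIF1 (a general transcription factor) had the largest differences. It rose after Toll pRNAi by 0.93 (standard error 0.079, edgeR adjusted p = 0.0013) and fell after BMP pRNAi by 1.07 (standard error 0.080, edgeR adjusted p = 0.00032). Nv-bowl, a zinc-finger factor of the odd-skipped family, had values near those of the sox-neuro locus, at 0.49 after Toll pRNAi (edgeR adjusted p = 0.14) and -0.66 after BMP pRNAi (edgeR adjusted p = 0.062), neither of which passed. CG14438 was the factor that did not pass between the knockdowns, at 0.52 (standard error 0.18, edgeR adjusted p = 0.14). Over the 20 broad lateral genes other than achaete-scute and sox-neuro, 1 rose and 13 fell after BMP pRNAi, with a median of -0.75.

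**Figure D4:**
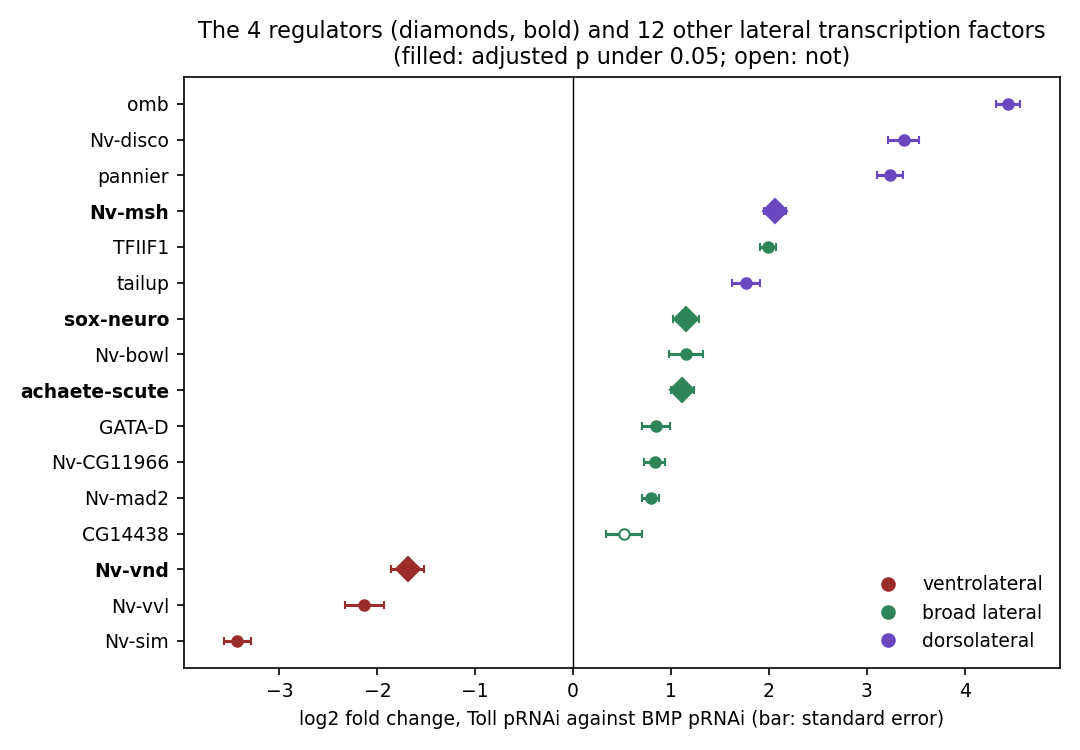
Log2 fold change on fragments between Toll pRNAi and BMP pRNAi (x axis, bar for the standard error) for the 4 regulators (diamonds, bold names) and 12 other lateral transcription factors (circles), coloured by the study's class of pattern. Filled symbols passed an edgeR adjusted p of 0.05. The ventrolateral genes lie below 0 (Nv-vnd at -1.69), the broad lateral ones between 0.52 and 1.99, and the dorsolateral ones between 1.77 and 4.44, with Nv-msh at 2.06.

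Markers of the neighbouring tissues moved with the groups. The 5 mesoderm markers (Nv-twi, Nv-sna, Nv-six4, Nv-stumps, Nv-zinc-finger-homeodomain) had the signs of Nv-vnd, with 5 of 5 lower after Toll pRNAi, where Nv-vnd did not pass, and 5 of 5 higher after BMP pRNAi. Their summed level was 66.4 to 69.5 FPKM in water, 11.6 to 15.5 FPKM after Toll pRNAi and 128 to 150 FPKM after BMP pRNAi, and none was at 0. The 5 extraembryonic markers (Nv-zen, dorsocross, grain, uninflatable, semaphorin 5c) fell 5 of 5 after BMP pRNAi with Nv-msh, rose 1 of 5 after Toll pRNAi, and summed to 113 to 117 FPKM in water, 132 to 133 FPKM after Toll pRNAi and 30.0 to 32.3 FPKM after BMP pRNAi. The part of a change in the extent of these tissues in the values of the 4 genes was not tested. The markers were chosen with earlier results of these libraries known, so their counts are no independent evidence of a direction.

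Genes with the pattern closest to each regulator were taken from 424 tested loci with a single identifier (425 for sox-neuro), by the root mean square difference of log2 CPM centred over the 6 libraries. These loci come from a table that puts significant loci first, and likeness over 6 libraries is a description. For Nv-vnd the closest named genes were the mesoderm factor Nv-sna (difference 0.26) and Nv-meteorin (0.29), after Nasvi2EG020100 (0.22), whose level was only 0.0219 to 0.134 FPKM in the group means. Nv-sna fell after Toll pRNAi by 0.97 (edgeR adjusted p = 0.015) and rose after BMP pRNAi by 0.84 (edgeR adjusted p = 0.011).

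For Nv-msh the closest were Nasvi2EG013777 (0.10), Nasvi2EG013741 (0.13) and crossveinless (0.15), which in the fly acts on BMP ligands outside the cell. The level of crossveinless was 53.6 FPKM in water, 79.1 FPKM after Toll pRNAi and 24.9 FPKM after BMP pRNAi. For achaete-scute the closest were Nasvi2EG004847 (0.050), echinus (0.083), listed by the study as a protease, and Nasvi2EG009559 (0.083). The study describes echinus in all regions but the mesoderm and Nasvi2EG009559 in a narrow dorsal stripe. Likeness in bulk RNA is therefore not a shared domain. For the sox-neuro locus the closest by this measure were achaete-scute (0.11), Nv-bowl (0.12) and Nasvi2EG031236 (0.12), and by Pearson correlation 0 of these 3 were among the 3 closest.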

How the data were processed

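Each library was assigned to its group from the labels. The 4 genes and all lists were chosen with earlier results of these data known. Per the labels and the study's methods, the authors used TopHat2 2.0.3, assembly 1.0 with annotation 2.0, and Cuffdiff from Cufflinks 2.0.2. The deposited table gives, per library, the expected count of fragments at each locus, which need not be whole since reads that map to several places are divided, and the FPKM that the authors' run computed, scaled to library size and transcript length. Fragments of Nv-msh and achaete-scute were whole in all 6 libraries (within 0.001), those of Nv-vnd in 0 and of sox-neuro in 2. Replicates numbered within a condition were matched to libraries by the order in which the Cuffdiff command names them, and 0 rows were unmatched. Loci were paired with gene identifiers and positions (as listed there) through the study's second supplementary table, of which the part used pairs 1799 of 20033 loci. Pooled columns of a second table were not used. Library preparation did not mark strand, so reads of overlapping antisense genes cannot be told apart.

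Expected counts were rounded and tested with the quasi-likelihood F test of edgeR 4.0.16 (R 4.3.3) with TMM scaling and its default filter on low counts (10241 loci kept). The fit had a mean per group, and all 6 libraries shared the spread estimated for each locus. The common biological coefficient of variation over all loci was 0.0953. Benjamini-Hochberg adjustment ran over all tested loci within each comparison, with a threshold of 0.05. Standard errors are the absolute log2 fold change over the square root of F. With 2 libraries per group the p-values measure the spread between these pools only, from few degrees of freedom. The depth was 22754267 to 30590172 fragments per library, with 239 to 11156 fragments per library at the 4 loci.

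Named genes were the 4 regulators, the other transcription factors with a lateral pattern in the study's list, the targets Nv-TollA and Nv-dpp, marker genes, and for each regulator the 3 loci most like it. Alternatives were DESeq2 1.42.0, RLE size factors, library totals alone (chosen after seeing the data), no filter, at least 10 fragments in every library, only the 2 groups compared, limma 3.58.1 on log2(FPKM + 1) with loci of a mean of at least 1 FPKM, on log2(FPKM + 0.1) and with no filter, leaving out each library, a block by title number, and Pearson correlation for likeness. Tables were made with Python 3.11.15.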

Additional observations from a re-analysis of the deposited data

How the results depend on the processing

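Of 184 recomputed values of the 4 genes, 149 kept their direction and side of the threshold and 0 changed sign. All draw on the same 6 libraries, in which the groups did not overlap for these genes, so a change of sign was unlikely from the start. With only the 2 groups compared, the Toll against water values were -0.39 for Nv-vnd, 0.41 for achaete-scute and 0.56 for sox-neuro, all now past the threshold, and BMP against water -0.69 for achaete-scute and -0.57 for sox-neuro, both no longer past it. With no filter on low counts, Toll against water passed for Nv-vnd (-0.40) and sox-neuro (0.55), as it did with DESeq2 for sox-neuro (0.57). With limma on FPKM, BMP against water no longer passed for sox-neuro (-0.58 with a pseudocount of 1, -0.59 with 0.1). With limma and no filter the calls lost were Nv-msh in Toll against water (0.60), Nv-vnd (1.26), achaete-scute (-0.62) and sox-neuro (-0.58) in BMP against water, and sox-neuro between the knockdowns (1.12).

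Leaving out 1 library at a time gave, against water after Toll pRNAi, -0.50 to -0.25 for Nv-vnd, 0.58 to 0.70 for Nv-msh, 0.38 to 0.48 for achaete-scute and 0.44 to 0.71 for sox-neuro. After BMP pRNAi the ranges were 1.04 to 1.56 for Nv-vnd, -0.82 to -0.57 for achaete-scute and -0.75 to -0.41 for sox-neuro. Where a group is left with 1 library, that library is assumed to vary like the others. The number of loci called ran from 22 to 1358 in place of 371 (Toll against water), from 90 to 2628 in place of 568 (BMP against water) and from 217 to 2045 in place of 706 (between the knockdowns). Without the gbb1 library 1318, 2628 and 2045 loci were called, and without water replicate 2 they were 22, 90 and 455. For the other lateral factors the numbers were 2 to 8 in place of 5, 5 to 12 in place of 10 and 9 to 12 in place of 11.

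Loci called in Toll against water were 716 with DESeq2, 1238 with no filter, 1343 with only the 2 groups, and 0 with limma and no filter (2615 at an unadjusted p under 0.05). In BMP against water they were 1228 with DESeq2, 2053 with no filter, 162 with only the 2 groups and 29 with limma and no filter. Between the knockdowns they were 1641 with no filter, 398 and 397 with limma at a pseudocount of 1 and 0.1, and 165 with limma and no filter. Other lateral factors called in Toll against water were 9 with only the 2 groups, 3 with limma on log2(FPKM + 0.1) and 0 with limma and no filter, which called 4 in BMP against water and 7 between the knockdowns. The cause of these shifts was not tested.

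Toll and BMP libraries share title numbers in 2 pairs, which the labels do not explain, so they were not treated as pairs. Deviations of same-numbered libraries correlated at 0.13 over 10241 loci. With that number as a replicate block, 1369 loci were called between the knockdowns, and the values were -1.68 for Nv-vnd, 2.06 for Nv-msh, 1.11 for achaete-scute and 1.15 for sox-neuro, all past the threshold. By Pearson correlation, the 3 genes most like each regulator shared 2 with the first measure for Nv-vnd, 1 for Nv-msh, 1 for achaete-scute and 0 for sox-neuro.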

Other observations

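Nv-vnd and the sox-neuro locus lie on the same scaffold, with 1037 kb between them, while Nv-msh and achaete-scute lie on others. Among paired loci, the one within 60 kb of a regulator was Nasvi2EG001594, which the study lists as an ankyrin-domain gene found only in Nasonia, 50.2 kb from the sox-neuro locus. It had 14.7 and 15.3 FPKM in water, 25.1 and 20.6 FPKM after Toll pRNAi, 6.80 FPKM in the gbb1 library and 8.83 FPKM in the dpp library. Its log2 fold change was 0.61 after Toll pRNAi (standard error 0.13, edgeR adjusted p = 0.048) and -0.97 after BMP pRNAi (standard error 0.14, edgeR adjusted p = 0.0086), the same directions as at the sox-neuro locus. Nasvi2EG001594 is itself 1 of the 20 broad lateral genes above, a list drawn from these libraries. Of these 20, 15 had values above 0 after Toll pRNAi and 19 had values below 0 after BMP pRNAi. The pairing of loci is partial and comes from a table that puts significant loci first, so unchanged neighbours could go unseen. Other neighbours were not analysed here, and a link between the loci was not tested.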
